A study of Mus musculus with 31 samples.

Results

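A set of 8 long noncoding RNAs was followed in irradiated mouse tumors: 9230114K14Rik, Pvt1, Neat1, Malat1, Gas5, Snhg1, Snhg12 and Meg3. They were taken by gene name, and 9230114K14Rik was selected on these data because its level was among the largest rises in RM-9 tumors 3 h after radiotherapy (RT). Of the 8 names, 7 were found among the 46072 genes of the deposited tables. Snhg1 was listed neither by name nor by its GENCODE M21 identifier, so it has no value here. The tumors were grown from RM-9, a mouse prostate cancer cell line, or MC-38, a mouse colon cancer cell line. Cells were placed under the skin of the right hind leg of wild-type male C57BL/6J mice, bought at 6 to 7 weeks of age, and tumors of about 8 mm received a single dose of 15 Gy or no treatment. There were 4 mice in each of the groups control, RT 3 h, RT 12 h and RT 24 h, except RM-9 RT 24 h with 3 mice, giving 31 mRNA-seq libraries with 1 tumor each. The untreated controls carry the 3 h time label, and the RT groups of a model share the same 4 controls. Each model is 1 cell line grown in 1 strain of mouse, and the tissue holds host cells beside tumor cells.

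A long noncoding RNA (lncRNA) is transcribed and often spliced like a messenger RNA but is not known to be translated into a working protein. Some act in the nucleus: Neat1 is the scaffold of paraspeckles, and Malat1 collects in nuclear speckles, where splicing factors are stored. Others are host genes of small nucleolar RNAs (snoRNAs), which guide chemical modification of ribosomal RNA from the introns of Gas5, Snhg1 and Snhg12, and the spliced Gas5 transcript is kept low by nonsense-mediated decay. Pvt1 lies beside the oncogene Myc, Meg3 is an imprinted RNA expressed from the maternal chromosome, and the function of 9230114K14Rik is not described by the sources used here. In many cells DNA damage stabilizes p53, which switches on target genes such as Cdkn1a and Mdm2.

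Positions are given on mouse build GRCm38, to which the coordinates in the tables correspond. 9230114K14Rik (ENSMUSG00000097145) lies on the plus strand at chr5:52190672-52279034. Its start is 0.158 kb from the start of Dhx15, an RNA helicase gene on the opposite strand, so the pair is divergent. RefSeq promoters (GRCm38.p6, 250 bases before to 50 bases after a gene start) were matched for Malat1, Gas5, Snhg1, Snhg12, Meg3 and the neighbor Dhx15. The Dhx15 window, at chr5:52190497-52190796 on the minus strand, is shown because it also holds the start of 9230114K14Rik. The capitals mark 125 bases that, read on the other strand, are the first 125 bases of the transcript 9230114K14Rik-203.
Dhx15: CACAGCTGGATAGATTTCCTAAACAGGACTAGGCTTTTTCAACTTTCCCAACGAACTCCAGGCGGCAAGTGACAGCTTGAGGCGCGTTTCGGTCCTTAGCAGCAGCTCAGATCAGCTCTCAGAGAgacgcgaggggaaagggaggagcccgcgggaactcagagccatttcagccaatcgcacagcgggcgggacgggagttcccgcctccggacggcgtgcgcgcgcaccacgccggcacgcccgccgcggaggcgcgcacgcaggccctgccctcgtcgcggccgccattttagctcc
For the snoRNA host genes Gas5 and Snhg12, the windows are chr1:161034916-161035215 and chr4:132308428-132308727, both on the plus strand. In TPM, Gas5 and Snhg12 were higher in MC-38 than in RM-9 tumors, and for Gas5 the call depended on the scaling, as given below. Capitals mark the first 50 bases of the transcript.
Gas5: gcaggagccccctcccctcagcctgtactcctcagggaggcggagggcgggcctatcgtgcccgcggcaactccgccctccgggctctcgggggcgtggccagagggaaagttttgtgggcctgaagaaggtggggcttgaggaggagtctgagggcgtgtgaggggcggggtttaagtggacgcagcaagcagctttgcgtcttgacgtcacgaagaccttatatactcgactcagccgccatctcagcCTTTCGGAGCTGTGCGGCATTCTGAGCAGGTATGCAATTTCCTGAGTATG
Snhg12: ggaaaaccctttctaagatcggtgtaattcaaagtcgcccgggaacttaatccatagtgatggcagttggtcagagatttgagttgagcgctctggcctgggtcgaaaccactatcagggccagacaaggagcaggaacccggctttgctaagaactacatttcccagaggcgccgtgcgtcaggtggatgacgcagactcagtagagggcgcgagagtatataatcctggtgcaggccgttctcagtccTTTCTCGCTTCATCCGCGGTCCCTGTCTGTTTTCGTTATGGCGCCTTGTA
The E-box CACGTG and the p53 half-site pattern, searched on both strands, had 0 matches in these windows, while 7.15% and 8.36% of all 32851 promoters in the table hold them. These counts describe the letters of these windows only.

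Levels are given as TPM, transcripts per 1e+06 transcripts, which is a measure per length. Gas5 was the highest of the 7 lncRNAs, at 199 to 725 TPM with a median of 316. Neat1 had a median of 44.3 TPM, Snhg12 38.8, Pvt1 10.0, Malat1 8.39 and Meg3 1.69, and 9230114K14Rik stayed at or under 3.18 TPM. The tables also give coverage, the mean number of reads over each base of a gene. Coverage placed Pvt1 last, at a median of 0.151 reads per base against 0.891 for 9230114K14Rik, the reverse of their order in TPM. The ratio of the deposited FPKM to an FPKM computed from coverage had a median of 101 for Pvt1, 10.6 for Malat1, 7.43 for Neat1, 7.16 for Meg3, 5.14 for Gas5, 2.22 for Snhg12 and 1.70 for 9230114K14Rik. For Pvt1, such a ratio corresponds to a length of at most 84.8 bases, shorter than its shortest annotated transcript of 501 bases. The level of Pvt1 relative to other genes is therefore uncertain. Each test of the 7 lncRNAs below is also given on coverage where it changed the call. For other genes, coverage is given only for some counts of the gene lists.

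Each library held between 21.4 and 29.4 M reads (M, 1e+06). A single mitochondrial gene, mt-Nd4l, took 35.6% to 43.5% of TPM in RM-9 tumors and 12.9% to 29.6% in MC-38 tumors. TPM sum to a fixed total, so a change in mt-Nd4l also shifts the TPM of all other genes. Its part in the median log2 fold change of all genes was not tested. Results that changed under median-ratio scaling, which centers libraries on a common median gene, are stated. One library stood apart, the tumor of MC-38 control mouse 1, with 9783 TPM over the skeletal muscle markers against 16.9 to 1592 TPM in the other MC-38 controls. The prostate markers Pbsn and Tmprss2 were at 0 in all 15 RM-9 libraries. The colon factor Cdx2 was at 0 in all 16 MC-38 libraries but at 3.74 to 7.68 TPM in RM-9, and Hoxb13, a prostate and distal colon factor, was at 0.450 to 3.03 TPM in MC-38 and at most 0.0547 TPM in RM-9. The epithelial keratin Krt8 was at 463 to 1069 TPM in RM-9 and at most 0.202 TPM in MC-38. The models are named by their labels. In bulk tumors, fewer cells of a type and less RNA per cell cannot be told apart. RM-9 and MC-38 libraries also differ in how their files were named, and the model and any difference in library batch cannot be told apart.

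9230114K14Rik was low in untreated tumors, and its TPM values 3 h after RT lay above those of the controls in both models. In RM-9, the control tumors had 0.312, 0.184, 0.202 and 0.586 TPM, and the RT 3 h tumors had 1.22, 1.71, 1.57 and 3.18 TPM. All 4 irradiated tumors lay above all 4 controls, which the choice of this gene for its rise here favors. The group means were 0.321 ± 0.185 (SD, n = 4) and 1.92 ± 0.864 TPM (SD, n = 4). The ratio of the means was 5.98 in TPM and 5.60 in coverage. On the log2(TPM + 0.5) scale, which understates the change of a low gene, the difference was 1.52, the place 10 among 14013 genes, and it ranged from 1.30 to 1.67 when each mouse was left out in turn. At 12 h the tumors had 0.655, 0.933, 0.970 and 0.630 TPM, and at 24 h 0.899, 0.904 and 1.30 TPM. Both later groups lay above the controls and below the 3 h mean, with log2 differences from control of 0.67 and 0.92. No test is given for a comparison that includes the RM-9 control or RT 3 h tumors, because those values chose the gene. Between RT 12 h and RT 24 h in RM-9 the difference was 0.24 (limma, adjusted p = 0.582).

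The read support was thin. Coverage corresponded to about 10.9 to 26.7 reads per library in RM-9 controls and 77.9 to 167.5 reads at RT 3 h, assuming reads of 75 bases over the 2762 exonic bases of the gene. At RT 12 h and RT 24 h in RM-9 it corresponded to 32.8 to 55.1 and 39.8 to 63.7 reads. Muscle markers summed to 218 to 2057 TPM in the RM-9 controls and to 2.95 to 810 TPM at RT 3 h, and macrophage markers to 288 to 455 and 203 to 309 TPM. Their part in the change of 9230114K14Rik was not tested.

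**Figure D1:**
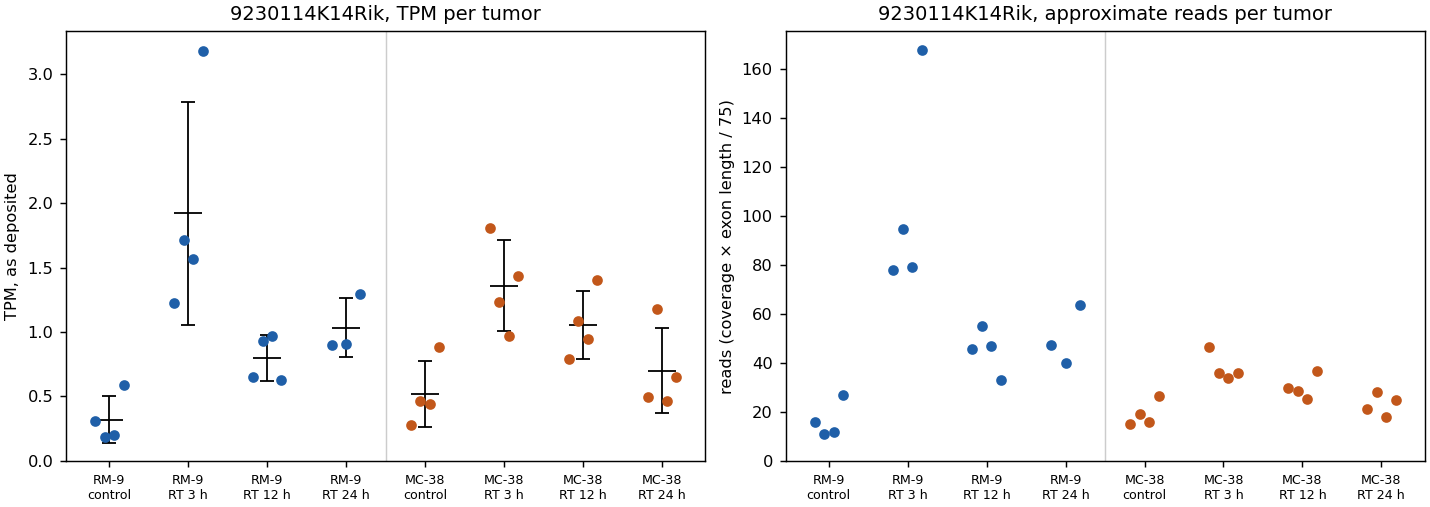
9230114K14Rik in each tumor by group, as TPM with the mean and SD and as the approximate number of reads behind each value; each point is 1 tumor. RM-9 RT 3 h tumors sit between 1.22 and 3.18 TPM, and MC-38 RT 3 h tumors between 0.965 and 1.81 TPM, all above the controls of their model.

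MC-38 tumors were not used to choose 9230114K14Rik, so their comparisons were tested with limma, a linear model fitted across all genes, with Benjamini-Hochberg adjustment over all genes tested. MC-38 controls had 0.278, 0.466, 0.442 and 0.881 TPM, and RT 3 h tumors had 1.81, 1.23, 0.965 and 1.44 TPM. In TPM the groups did not overlap, and the means were 0.517 ± 0.257 and 1.36 ± 0.355 TPM (SD, n = 4 each). The log2 difference of 0.88 (SE 0.23) did not pass the threshold of 0.05 in TPM (limma, adjusted p = 0.104) and passed it in coverage with 0.92 (limma, adjusted p = 0.0395). The exact two-sided permutation test gave p = 0.0286, the smallest that 4 against 4 tumors allow, and 0.514 after adjustment over 72 such tests of the lncRNAs. With median-ratio scaling the groups overlapped, and the log2 difference was 0.78 (limma, adjusted p = 0.101). In TPM without MC-38 control mouse 1 the difference was 0.77 (limma, adjusted p = 0.244).

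At 12 h the MC-38 tumors had 0.788, 1.08, 0.948 and 1.40 TPM, overlapping the highest control only. The log2 difference of 0.63 (SE 0.23) passed the threshold (limma, adjusted p = 0.0455). This call was lost with coverage (0.56, adjusted p = 0.0687), with median-ratio scaling (0.44, adjusted p = 0.165) and without MC-38 control mouse 1 (0.51, adjusted p = 0.142), all by limma. At 24 h the tumors had 0.495, 1.18, 0.468 and 0.655 TPM, of which 1 lay above the controls, with a difference of 0.23 (limma, adjusted p = 0.505). The steps from 3 h to 12 h and from 12 h to 24 h were -0.25 and -0.40 (limma, adjusted p = 0.673 and 0.442). Muscle markers summed to 16.9 to 9783 TPM in MC-38 controls, 67.9 to 2750 TPM at 3 h and 5.51 to 418 TPM at 12 h, and macrophage markers to 621 to 985, 438 to 685 and 228 to 534 TPM, and their part was not tested. Reads behind the MC-38 values were about 15.3 to 26.5 in controls, 33.7 to 46.4 at 3 h, 25.2 to 36.8 at 12 h and 17.8 to 28.2 at 24 h.

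Ordered by mean TPM, 9230114K14Rik was highest in RM-9 RT 3 h, followed by MC-38 RT 3 h, MC-38 RT 12 h, RM-9 RT 24 h, RM-9 RT 12 h, MC-38 RT 24 h, MC-38 control and RM-9 control. Every pair of neighbors in that order overlapped. The log2 difference from control at RT 3 h was smaller in MC-38 than in RM-9, and subtracting the latter gave -0.64, which is a description only, since the RM-9 values chose the gene.

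Dhx15, which shares its start region with 9230114K14Rik, was far more abundant and gave no call at RT 3 h against control. Its means in RM-9 were 76.6 ± 10.7 TPM in controls and 86.6 ± 8.63 TPM at RT 3 h (SD, n = 4 each), a log2 difference of 0.18 (limma, adjusted p = 0.392). In MC-38 they were 102.3 ± 26.5 and 118.6 ± 14.1 TPM (SD, n = 4 each), a difference of 0.25 (limma, adjusted p = 0.358). At 12 h the Dhx15 means were 65.5 ± 9.48 TPM in RM-9 and 130.8 ± 6.00 TPM in MC-38 (SD, n = 4 each). Over the 31 tumors, in median-ratio scaled log2 values with the mean of each model removed, Dhx15 and 9230114K14Rik correlated with r = 0.22.

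The genes whose levels were most like 9230114K14Rik over the same 31 tumors, out of 12256 ranked, were Ei24 (r = 0.87), Trp53inp1 (r = 0.87) and Dennd2c (r = 0.85). Ei24 and Trp53inp1 are known p53-induced genes, and Cdkn1a, the p53 target that inhibits cyclin-dependent kinases, had r = 0.61. These tumors share their RT groups and libraries, and the RM-9 tumors among them chose the gene, so the values are a description. Trp53inp1 itself was at 3.54 ± 0.543 TPM in RM-9 controls and 13.2 ± 4.20 TPM at RT 3 h (SD, n = 4 each), a log2 difference of 1.72. In MC-38 it was at 1.63 ± 0.286 and 5.31 ± 1.06 TPM (SD, n = 4 each), a difference of 1.44. No test is given for it here, because the likeness that picked it out used these same tumors. It is also among the listed p53 target genes counted below.

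Of the 18 p53 target genes listed, all tested, 7 rose and 0 fell in RM-9 at 3 h. By 12 h the number that rose was 3, and by 24 h 0 passed. In MC-38, 3 rose early, at 3 h, then 9 at 12 h and 6 by 24 h, and 0 fell in TPM. The shares of all genes called at these times were 0.228%, 8.37% and 0% in RM-9 and 0.0637%, 31.1% and 13.8% in MC-38. With median-ratio scaling 10, 3 and 0 rose in RM-9. In MC-38 that scaling gave 3 rising at 3 h, 3 rising and 1 falling at 12 h, and 4 rising and 2 falling at 24 h. In coverage 9, 2 and 0 rose in RM-9, and 4, 3 and 4 rose in MC-38, with 1 falling at 24 h. The median log2 difference of the list at 3 h was 0.73 in RM-9, beside 0.056 over all genes, and 0.43 in MC-38, beside 0.19 over all genes. Mdm2, the ubiquitin ligase that degrades p53, rose at 3 h by 1.27 in RM-9 (limma, adjusted p = 0.0150) and by 1.11 in MC-38 (limma, adjusted p = 0.0121). From 3 h to 12 h in RM-9, 14 of the 18 fell, of which 2 fell under median-ratio scaling. In that comparison 29% of all genes were called in TPM, 4015 down and 47 up.

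The other lncRNAs did not pass the threshold after RT in either model in TPM. These include Malat1, whose log2 differences from control had SEs of up to 1.62 with 12 of 31 libraries listed at 0, and Neat1, with SEs of up to 0.37 in RM-9 and 1.69 in MC-38, so a missed threshold says little about either. In RM-9, limma called 0 of the 6 other lncRNAs with values at 3 h, and likewise at 12 h and 24 h, beside 0.228%, 8.37% and 0% of all 14013 genes tested. At an unadjusted p under 0.05 the count was also 0 at each time, and Dunnett's test on TPM, an alternative, gave 0 of 6 before and after adjustment. In MC-38, 7 lncRNAs were counted, and 0 passed at 3 h, 1 at 12 h, which was 9230114K14Rik, and 0 at 24 h. The shares of all 15698 genes called in MC-38 were 0.0637%, 31.1% and 13.8%. At an unadjusted p under 0.05 the MC-38 counts were 1, 2 and 1 by limma, and Dunnett's test gave 0 calls, with 1, 0 and 0 before adjustment.

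Between RT times the counts were 0 of 6 for RM-9 12 h against 3 h (29% of all genes called), 0 of 7 for RM-9 24 h against 12 h (0%), 0 of 7 for MC-38 12 h against 3 h (0%) and 0 of 7 for MC-38 24 h against 12 h (1.68%). For the difference in RT effect between models, 0 of 6 passed at every time, and the shares of all 15358 genes were 0%, 45.4% and 1.81% in time order. All of these counts were also 0 at an unadjusted p under 0.05 by limma. Exact permutation tests between RT times gave the lowest p for Neat1 in MC-38, 24 h against 12 h (two-sided, p = 0.0571 and 0.686 adjusted over the family in TPM). With median-ratio scaling or coverage those groups did not overlap (exact permutation test, p = 0.0286, and adjusted p = 0.686 and 0.514), with 1 RT 24 h library listed at 0. The ratio of FPKM to coverage for Neat1 was 20.2 in the other RT 24 h libraries. At RT 12 h it was 7.61, 7.02, 7.44 and 20.2. A difference in level and this difference in scale cannot be told apart here. The MC-38 share at 12 h consisted of 4469 genes up and 406 down in TPM, and of 993 up and 1541 down under median-ratio scaling.

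Gas5, the host of several box C/D snoRNAs, was higher in TPM in MC-38 than in RM-9 tumors and showed no call after RT. The RM-9 controls had 237, 262, 249 and 252 TPM, with a mean of 250.3 ± 10.30 (SD, n = 4). The MC-38 controls had 316, 619, 624 and 369 TPM, with a mean of 482 ± 162 (SD, n = 4). The lowest MC-38 control exceeded the highest RM-9 control, and mice 1 and 4 were well below mice 2 and 3. The log2 difference was 0.88 (SE 0.19; limma, adjusted p = 0.000161), and it was 1.06 without MC-38 control mouse 1 (limma, adjusted p = 1.17e-05). It was smaller in coverage (0.42, limma, adjusted p = 0.0378), and with median-ratio scaling it did not pass (0.21, limma, adjusted p = 0.282).

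After RT, Gas5 group means in RM-9 were 248.5 ± 34.3 at 3 h, 254.9 ± 45.8 at 12 h (SD, n = 4 each) and 243.0 ± 50.3 TPM at 24 h (SD, n = 3). The log2 differences from control in time order were -0.02, 0.01 and -0.06 (limma, adjusted p = 0.946, 0.966 and 0.999). In MC-38 the means were 573 ± 113, 503 ± 94.4 and 415 ± 67.6 TPM (SD, n = 4 each), and the differences were 0.29, 0.11 and -0.17 (limma, adjusted p = 0.412, 0.690 and 0.625). Each irradiated group overlapped its controls. Gas5 overlaps the start of Zbtb37 on the opposite strand, and whether counting used strand is not given in the sources used here.

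Snhg12, a host of box H/ACA snoRNAs among others, was higher in MC-38 than in RM-9 controls. RM-9 controls had 12.3, 16.6, 21.1 and 19.5 TPM, and MC-38 controls had 38.8, 88.1, 85.2 and 48.2 TPM. The groups did not overlap, and the means of 17.4 ± 3.88 and 65.1 ± 25.2 TPM (SD, n = 4 each) had a log2 difference of 1.82 (SE 0.23; limma, adjusted p = 6.67e-08). The difference was 1.16 with median-ratio scaling, 1.33 in coverage and 2.03 without MC-38 control mouse 1, and passed the threshold in each. The gap held over the whole series: the 15 RM-9 tumors had at most 21.1 TPM and the 16 MC-38 tumors at least 38.8 TPM. RT groups within a model differed little, with means of 16.95 to 17.6 TPM in RM-9 and 65.8 to 72.2 TPM in MC-38. The log2 differences from control were between -0.02 and 0.20 (limma, adjusted p = 0.541 to 1.00). Among its neighbors, Trnau1ap, 0.739 kb away on the other strand and needed for selenocysteine incorporation, was also higher in MC-38 controls by 1.48 (limma, adjusted p = 1.00e-10), and Taf12, a subunit of the general transcription factor TFIID, by 1.66 (limma, adjusted p = 4.09e-11).

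MC-38 control mice 1 and 4, which had the lowest Gas5, Snhg12 and Pvt1 of that group, had 29.6% and 21.1% of TPM in mt-Nd4l, against 17.3% and 15.8% in mice 2 and 3. Their muscle markers summed to 9783 and 1592 TPM, against 16.9 and 119 TPM. The part of these in the spread of the controls was not tested.

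**Figure D2:**
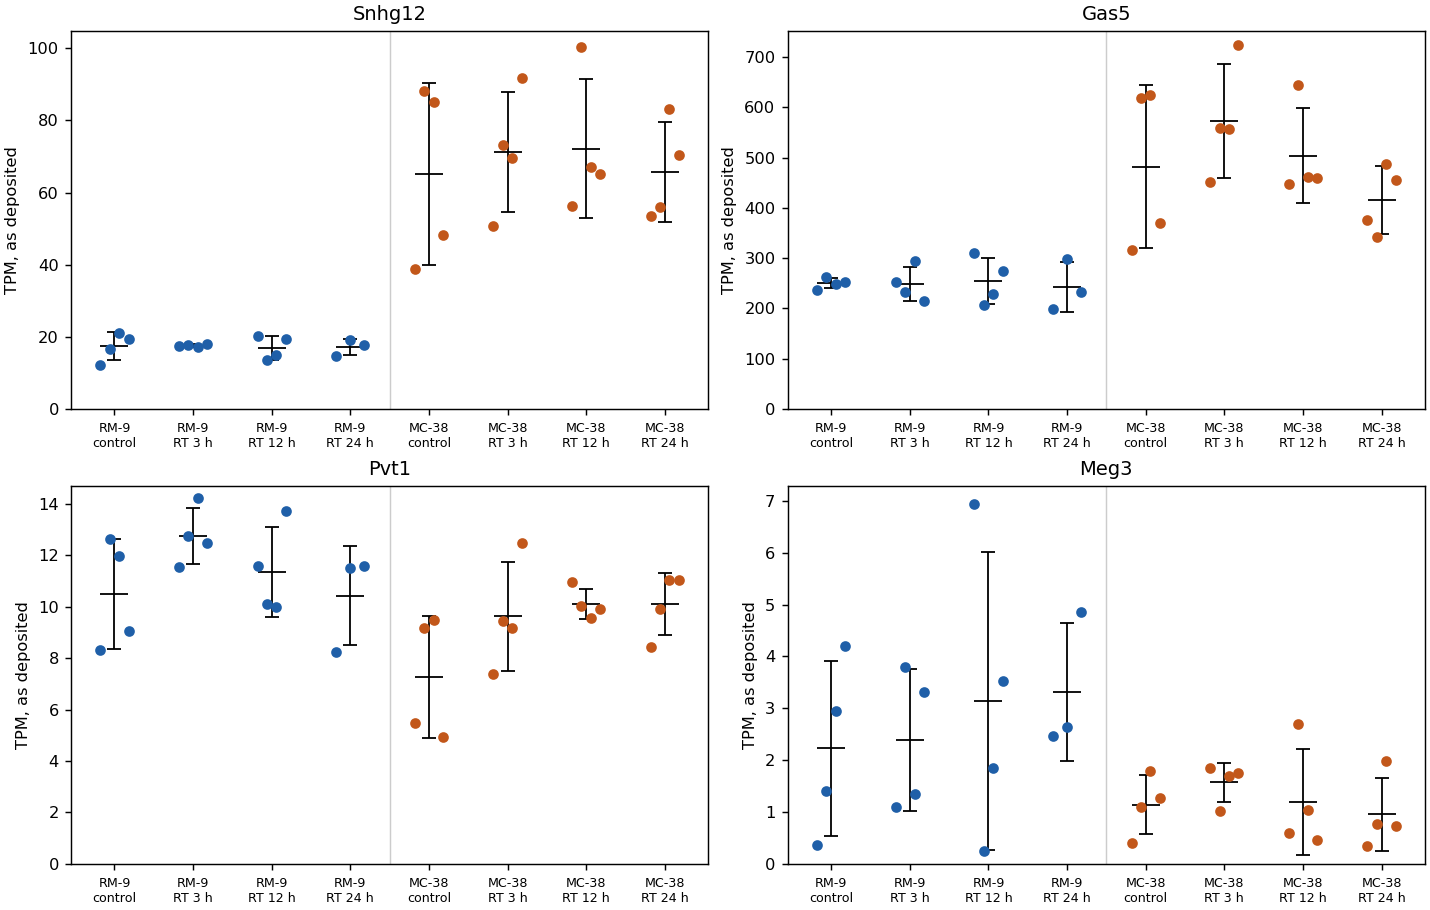
Snhg12, Gas5, Pvt1 and Meg3 in TPM in each tumor by group, with the mean and SD; each point is 1 tumor. Snhg12 is at most 21.1 TPM in RM-9 and at least 38.8 TPM in MC-38, while Meg3 spreads widely within its groups.

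Between the untreated models, 3 of 6 lncRNAs passed, with Gas5 and Snhg12 higher and Pvt1 lower in MC-38, beside 75.4% of all 15358 genes. Of all genes, 9943 were higher and 1641 lower in MC-38, with a median log2 difference of 0.63. Under median-ratio scaling the split was 5088 higher and 4901 lower.

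Gas5 and Snhg12 varied together. Their deviations from the model means, in median-ratio scaled log2 values over the 31 tumors, correlated with r = 0.78, which placed Snhg12 at rank 11 for Gas5. The most alike genes were, for Gas5, 2410006H16Rik (r = 0.92), Zfas1, listed as 1500012F01Rik (r = 0.91), and Snhg6 (r = 0.89). For Snhg12 they were Zfas1 (r = 0.90), Taf1d (r = 0.89) and Snhg5 (r = 0.88). Zfas1, Snhg5 and Snhg6 are snoRNA host genes themselves. The points share library preparation and depth, and no test is attached.

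**Figure D3:**
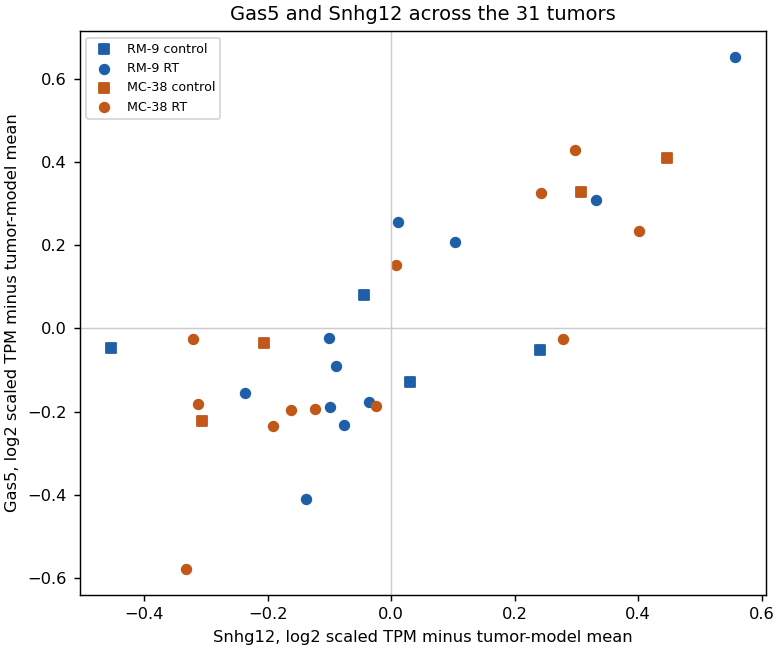
Deviation of Gas5 against that of Snhg12 from the mean of its model, in log2 units, for the 31 tumors. The tumors rise together along the diagonal (r = 0.78), RM-9 and MC-38 alike.

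Of 18 other snoRNA host genes listed, 17 were in the tables, and 0 of the 15 tested in RM-9 and 0 of the 16 tested in MC-38 passed in any comparison of RT with control, while median-ratio scaling gave 1 fall, in MC-38 at 24 h. Between the untreated models 14 of 16 were higher in MC-38 and 0 lower, with a median of 1.35 beside 0.63 over all genes, of which 75.4% were called, most of them higher in MC-38. Under median-ratio scaling 10 of the 16 were higher, and in coverage 10 genes of the list were higher. Snhg3 was at 107.7 ± 39.8 TPM in MC-38 and 22.7 ± 5.71 TPM in RM-9 controls (SD, n = 4 each), a difference of 2.18 (limma, adjusted p = 1.03e-08). Zfas1 was at 304 ± 125 and 69.6 ± 11.3 TPM (SD, n = 4 each), a difference of 2.04 (limma, adjusted p = 1.06e-08). Snhg14 was listed at 0 in the RM-9 controls, so no fold is given.

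The nonsense-mediated decay factors degrade spliced Gas5. Of 10 genes tested, 1 fell in RM-9 at 12 h against control, while 7 rose in MC-38 at 12 h and 1 at 24 h, beside 8.37%, 31.1% and 13.8% of all genes called. In RM-9 at 12 h against 3 h, 7 of the 10 fell, beside 29% of all genes, and 0 with median-ratio scaling. With median-ratio scaling the counts were 0 at 12 h in RM-9, 1 up at 12 h in MC-38, and 1 up with 3 down at 24 h. In coverage they were 0 at 12 h in RM-9, 2 up at 12 h in MC-38, and 1 up with 1 down at 24 h. The median of the list at 12 h was -0.27 in RM-9 beside -0.19 over all genes, and 0.53 in MC-38 beside 0.33.

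Neat1, the scaffold of paraspeckles, was abundant and uneven. RM-9 controls had 20.9, 45.1, 74.4 and 69.98 TPM, RT 3 h tumors 54.7, 56.3, 29.8 and 53.4, RT 12 h tumors 70.6, 41.5, 41.8 and 70.3, and RT 24 h tumors 44.3, 64.1 and 42.4 TPM. In TPM every RT group lay inside the range of the controls. In FPKM computed from coverage it did not: controls ran from 3.69 to 11.3, RT 12 h tumors reached 15.4 and RT 24 h tumors went down to 2.52. The log2 differences were -0.00, 0.20 and 0.07 (limma, adjusted p = 0.998, 0.715 and 0.999), and in coverage they were 0.23, 0.72 and -0.51. In MC-38, Neat1 was listed at 0 in the control, RT 3 h and RT 24 h tumors of mouse 1. The remaining MC-38 controls had 63.3, 57.3 and 21.6 TPM, the RT 3 h tumors 18.96, 69.8 and 36.6, the RT 12 h tumors 37.2, 48.8, 49.7 and 54.5, and the RT 24 h tumors 37.4, 26.7 and 36.8 TPM.

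Malat1, the speckle RNA and normally among the most abundant lncRNAs of mammalian cells, was listed at 0 in 12 of 31 libraries. RM-9 controls had 0, 9.99, 13.3 and 34.6 TPM, RT 3 h tumors 13.5, 0, 8.39 and 33.6, RT 12 h tumors 0, 15.1, 14.2 and 42.1, and RT 24 h tumors 12.2, 8.28 and 30.4 TPM. MC-38 controls had 0, 0, 20.6 and 0.285 TPM, all 4 RT 3 h tumors were at 0, RT 12 h tumors had 22.5, 0, 16.1 and 0, and RT 24 h tumors 6.04, 38.6, 0 and 27.6 TPM. Zeros thus occurred in irradiated and untreated tumors of both models. Neither gene is given a mean or a fold where zeros occur.

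The zeros do not stand for a locus without reads. Gm27694, a short gene inside Malat1 on the same strand at chr19:5799000-5799085, was above 0 in 12 of the 12 libraries with Malat1 at 0, at 4.39 to 38.6 TPM with a median of 17.9, beside a median of 17.01 TPM in the other 19. Within Neat1, Gm27505 was at 6.11 to 37.0 TPM and Gm28006 at 9.31 to 33.9 TPM in the 3 libraries with Neat1 at 0, and at medians of 0.771 and 5.09 TPM in the other 28. In all, 61 genes were listed at 0 in some libraries while their median in the others was over 20 TPM. For Neat1, 9 libraries also had an FPKM to coverage ratio of 20.2, beside a lowest ratio of 6.98. Libraries with different ratios are not on the same scale for this gene.

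**Figure D4:**
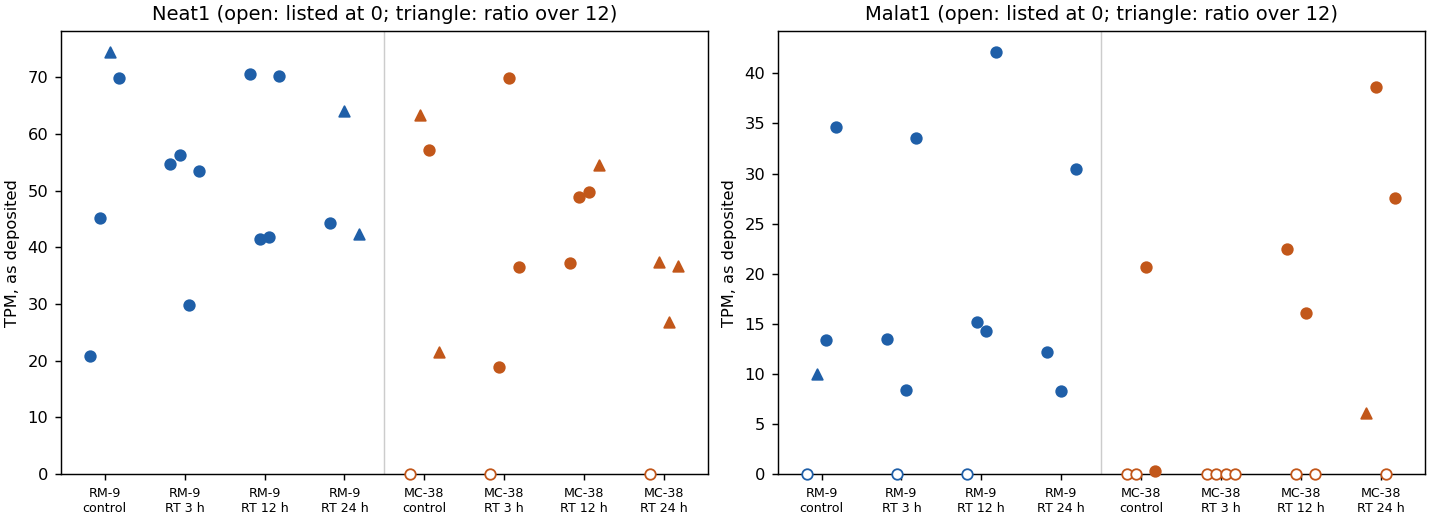
Neat1 and Malat1 TPM per library by group; open symbols are libraries listed at 0, and triangles are libraries whose FPKM to coverage ratio is over 12. Malat1 is at 0 in 12 of 31 libraries, among them all 4 of MC-38 RT 3 h.

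Of the 12 protein genes of paraspeckles and nuclear speckles tested, 5 fell in RM-9 at 12 h and 5 rose in MC-38 at 12 h, and under median-ratio scaling 0 fell in RM-9 and 0 rose with 1 falling in MC-38. The shares of all genes called at 12 h were 8.37% and 31.1%. In coverage at 12 h, 0 fell in RM-9, and 0 rose and 1 fell in MC-38. At 3 h 0 passed in either model in TPM, and 3 fell in RM-9 with median-ratio scaling. At 24 h in MC-38, 1 rose in TPM, and 0 rose and 2 fell with median-ratio scaling and likewise in coverage. Srsf2, a splicing factor of nuclear speckles, was at 185 ± 27.4 TPM in RM-9 controls and 125 ± 7.83 TPM at 12 h (SD, n = 4 each), a log2 difference of -0.56 (limma, adjusted p = 0.0246). Sfpq, a core paraspeckle protein, was at 131 ± 29.4 TPM in MC-38 controls and 169 ± 9.85 TPM at 12 h (SD, n = 4 each), a difference of 0.39 (limma, adjusted p = 0.0459), and with median-ratio scaling it had 0.04 (limma, adjusted p = 0.715).

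Pvt1, whose locus at chr15:62037986-62378096 begins 47.6 kb from Myc, was lower in untreated MC-38 than RM-9 tumors. RM-9 controls had 8.31, 12.6, 12.0 and 9.05 TPM, and MC-38 controls had 5.46, 9.17, 9.47 and 4.95 TPM. The ranges overlapped, and the means of 10.5 ± 2.13 and 7.26 ± 2.39 TPM (SD, n = 4 each) had a log2 difference of -0.53 (SE 0.18; limma, adjusted p = 0.00876). The difference was -0.73 in coverage and -1.17 with median-ratio scaling, -0.43 without MC-38 control mouse 1 (limma, adjusted p = 0.0394), and -0.38 without MC-38 control mouse 4, where it no longer passed (limma, adjusted p = 0.0587). Myc, the transcription factor gene, was at 275 ± 41.2 TPM in RM-9 and 139 ± 48.6 TPM in MC-38 controls (SD, n = 4 each), a log2 difference of -1.04 (limma, adjusted p = 0.000276). Over the 31 tumors Pvt1 and Myc correlated with r = 0.34, while the genes most like Pvt1 were Znrf1 (r = 0.76), AI846148 (r = 0.75) and Tgif1 (r = 0.73).

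After RT, the Pvt1 values of the MC-38 RT 3 h tumors were 7.39, 9.45, 9.18 and 12.5 TPM. The RT 12 h tumors had 10.9, 10.0, 9.56 and 9.92 TPM, and the RT 24 h tumors had 8.45, 9.91, 11.04 and 11.02 TPM. In TPM, all 4 tumors at 12 h lay above the highest control of 9.47 TPM, with a difference of 0.50 (SE 0.20, limma, adjusted p = 0.0602). The exact permutation test gave p = 0.0286, and 0.514 over the 72 tests. At 3 h and 24 h the differences were 0.41 and 0.50 (limma, adjusted p = 0.253 and 0.101). These differences shrank to 0.21, 0.17 and 0.25 with median-ratio scaling and to 0.14, 0.11 and 0.16 in coverage. With median-ratio scaling the 12 h tumors and the controls overlapped (exact permutation test, p = 0.343). In coverage the 12 h tumors, at 0.118 to 0.133 reads per base, lay inside the range of the controls, 0.0739 to 0.140. The controls decided the call: without MC-38 control mouse 2 or 3 the 12 h difference was 0.63 or 0.64 (limma, adjusted p = 0.0341 or 0.0189), without mouse 1 or 4 it was 0.39 or 0.35 (limma, adjusted p = 0.184 or 0.176), and at 24 h it was 0.63 without mouse 3 (limma, adjusted p = 0.0335). In RM-9 the group means were 12.7 ± 1.10 at 3 h, 11.4 ± 1.74 at 12 h (SD, n = 4 each) and 10.4 ± 1.91 TPM at 24 h (SD, n = 3), with differences from control of 0.29, 0.12 and -0.00 (limma, adjusted p = 0.268, 0.613 and 1.00). Myc itself did not pass after RT, with differences of 0.04, -0.21 and 0.06 in RM-9 and 0.12, 0.38 and 0.36 in MC-38.

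**Figure D5:**
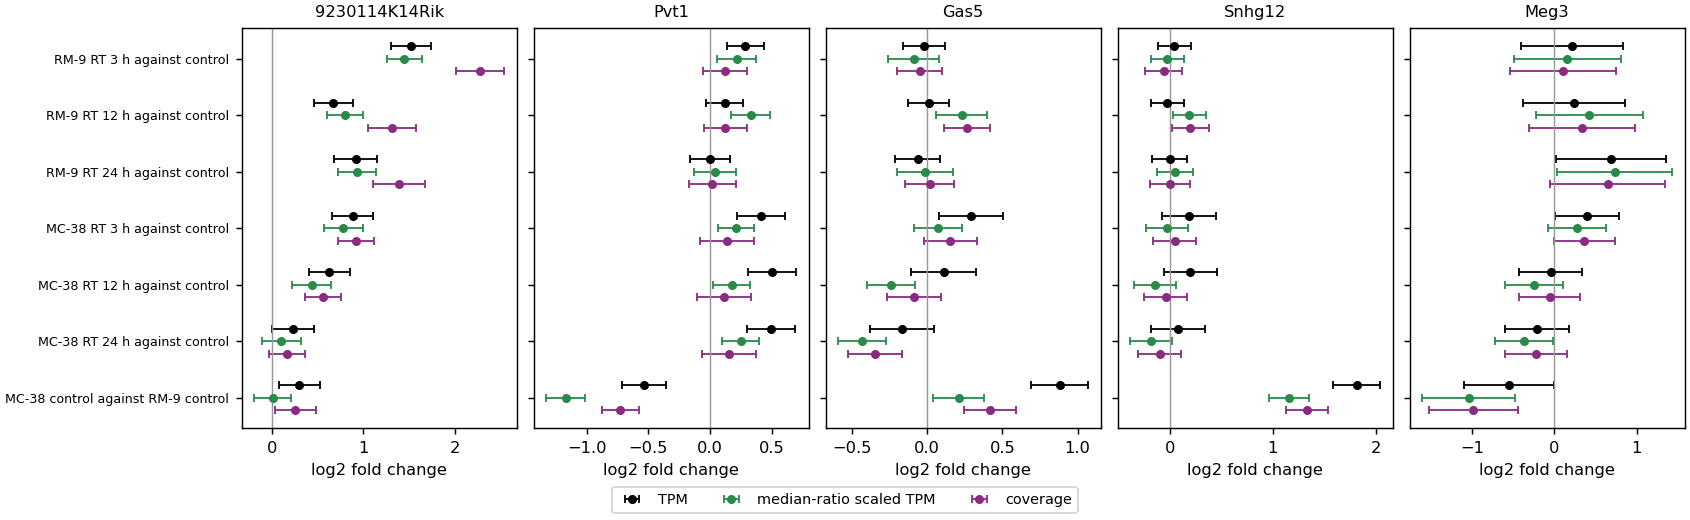
Log2 differences with SE for 5 lncRNAs in the 6 comparisons of RT with control and between the untreated models, from TPM, median-ratio scaled TPM and coverage; the horizontal scale differs between panels. The Pvt1 differences in MC-38 shrink from 0.41 to 0.50 in TPM to 0.11 to 0.16 in coverage, and Snhg12 stays at 1.16 to 1.82 between the models.

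Meg3, of the imprinted Dlk1-Dio3 cluster, was low and varied more among mice than between groups. RM-9 controls had 0.372, 1.41, 2.94 and 4.21 TPM, and RT 12 h tumors had 0.246, 1.85, 3.53 and 6.94 TPM. MC-38 controls had 0.406, 1.09, 1.78 and 1.27 TPM, and the MC-38 tumors after RT spanned 0.339 to 2.69 TPM. The untreated models differed by -0.55 (SE 0.54; limma, adjusted p = 0.360), and the RT differences ran from -0.21 to 0.69 (limma, adjusted p = 0.532 to 0.999). Its neighbor Rian, another maternally expressed RNA of the cluster 32.2 kb away, was at 6.82 ± 3.55 TPM in RM-9 and 3.68 ± 1.62 TPM in MC-38 controls (SD, n = 4 each), and correlated with Meg3 with r = 0.59. The genes most like Meg3 were Snora33 (r = 0.75), 2700038G22Rik (r = 0.74) and Snord104 (r = 0.70).

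Of the 10 imprinted noncoding RNAs and Dlk1-Dio3 genes listed, 6 were tested in RM-9 and 5 in MC-38, and 0 passed in any comparison of RT with control. Between the models 1 of 5 passed, beside 75.4% of all genes. It was Peg13, an imprinted RNA, at 3.58 ± 0.184 TPM in RM-9 and 0.801 ± 0.281 TPM in MC-38 controls (SD, n = 4 each). The log2 difference was -1.67 (limma, adjusted p = 1.15e-08). With median-ratio scaling 4 of the listed genes were lower in MC-38 and 0 higher, and in coverage 3 were lower and 0 higher. Among 22 further named lncRNAs, 21 were in the tables. In MC-38 at 12 h, 2 of 15 tested rose, beside 31.1% of all genes called. Fendrr, a mesenchymal developmental lncRNA, went from 4.27 ± 3.41 to 10.4 ± 1.05 TPM (SD, n = 4 each), a log2 difference of 1.502 (limma, adjusted p = 0.0221). Tug1 went from 21.5 ± 6.60 to 32.4 ± 3.02 TPM (SD, n = 4 each), a difference of 0.63 (limma, adjusted p = 0.0412). With median-ratio scaling Tug1 had 0.29 (limma, adjusted p = 0.170). In coverage 0 genes of this list, Fendrr and Tug1 included, rose in MC-38 at 12 h. In TPM, 0 of the 14 tested in RM-9 and 0 of the 15 in MC-38 passed in any other comparison of RT with control. Coverage gave 1 rise, in MC-38 at 24 h.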

How the data were processed

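Tumor RNA was made into poly(A)-selected stranded libraries (single reads of 75 bases) by the authors, 1 library per mouse. The deposited tables list coverage, FPKM and TPM per gene; the aligner, the quantifier and the use of strand are not given in the sources used here. The submitters' processing notes name bcl2fastq 2.17 and GRCm39, but of 45137 identifiers shared with GENCODE M21, 91.1% have the same start or end on GRCm38. The TPM values deposited by the authors were fitted as log2(TPM + 0.5) with limma 3.58.1 (trend, R 4.3.3), for genes with a mean of at least 0.5 TPM, within each model (4 groups) and over 31 libraries (8 groups) for comparisons of models. Benjamini-Hochberg adjustment covered all genes tested, with a threshold of 0.05. The FPKM and coverage the authors deposited served as a second readout, coverage being scaled by read length and total reads (+ 0.05). Exact permutation tests used mean TPM. Alternatives were median-ratio scaling, TPM without mitochondrial genes, other pseudocounts and filters, Dunnett's test and leaving out each mouse. The fit was tested on simulated data.

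Named genes were the members, their nearest neighbors with a mean TPM of at least 1, the 3 genes most alike each, and the 3 leading calls of each list. Members and lists were chosen with earlier results of these data known. Counting intervals are not given, since the tables hold no counts. For 9230114K14Rik, coverage times 2762 exonic bases was a whole number to within 0.05 bases in 28 of 31 libraries. The approximate reads are these bases divided by 75 and need not be whole. Some items are not reported here.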

Additional observations from a re-analysis of the deposited data

Results flagged for a closer look

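Among 49 groups of 4 libraries examined, 3 had a highest or lowest library whose gap to the nearest other was, as a share of the group's range, over Dixon's 95% critical value, and about 1 in 20 is flagged by chance. Neat1 in RM-9 RT 3 h was lowest in mouse 3 at 29.8 TPM, with the others at 53.4 to 56.3 TPM. Malat1 in MC-38 controls was highest in mouse 3 at 20.6 TPM, with the others at 0 to 0.285 TPM. Gas5 in MC-38 RT 12 h was highest in mouse 2 at 644 TPM, with the others at 447 to 462 TPM. Mouse 2 was also the highest of its group for Snhg12, at 100.3 TPM beside 56.2 to 67.0 TPM.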

How the results depend on the processing

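The count of lncRNAs past the threshold in MC-38 at 12 h, 1 in TPM, was 0 with coverage, median-ratio scaling, TPM with the mitochondrially encoded genes taken out, no filter on low values, only the 2 groups compared, a mean TPM of at least 5 (which leaves 9230114K14Rik out) and Dunnett's test; the MC-38 count at 3 h, 0 in TPM, was 1 with coverage. Leaving out 1 mouse gave 0 to 1 at 12 h and 0 to 1 at 24 h in MC-38, 2 to 3 of 6 between the untreated models, and 0 in the other comparisons. 9230114K14Rik in MC-38 ran from 0.51 to 0.79 at 12 h over these fits (limma, adjusted p = 0.0392 to 0.142) and from 0.77 to 1.04 at 3 h (adjusted p = 0.0606 to 0.283). Calls over all comparisons under median-ratio scaling, added after seeing the data, were 4 rather than 1 for imprinted genes, 8 rather than 18 for other named lncRNAs, 11 rather than 37 for paraspeckle and speckle proteins and 14 rather than 36 for nonsense-mediated decay genes. The paraspeckle and speckle protein genes turned direction between the untreated models, from 11 of 12 higher in MC-38 in TPM to 0 higher and 4 lower with median-ratio scaling. In TPM 75.4% of all genes were called between these models, 9943 higher and 1641 lower in MC-38. The median log2 difference in TPM was 0.59 for these genes, beside 0.63 over all genes. Over all genes the split also changed with that scaling, as given above. The cause of these changes was not tested.

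Same-numbered mice had a median correlation of deviations of -0.13 in RM-9 and -0.06 in MC-38. Single pairs ran from -0.42 to 0.27 in RM-9 and from -0.50 to 0.53 in MC-38. Numbers were treated as names only, although a median cannot exclude shared handling of some pairs. A fit with the replicate block changed no count of lncRNAs and gave 9230114K14Rik 0.63 in MC-38 at 12 h (limma, adjusted p = 0.0388). The tables hold no counts, so values of 9230114K14Rik that rest on few reads carry no counting interval.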
